A study of Mus musculus with 28 samples.

Results

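Livers of mice given adefovir dipivoxil were compared directly with livers of mice given tenofovir disoproxil, on the RNA levels of genes for P450 enzymes, cholesterol and bile acid metabolism, transport and their regulation. The members were 10 animals, 5 titled for each drug, measured on 20 of the 28 arrays of the series. The other 8 arrays held RNA of animals given phenobarbital plus β-naphthoflavone and enter only an alternative fit. All animals were female, of the C57BL/6 inbred strain and 8 to 10 weeks old, and the labels name no genetic change. Adefovir dipivoxil or tenofovir disoproxil was injected into the peritoneum at 25 mg/kg on 3 days, and the animals were killed on day 4, 24 hours after the last dose. Each animal's liver RNA was hybridised on an array against a pool of liver RNA from saline-treated mice and again with the dyes exchanged. The pool is described as 10 animals in the sample labels and as a group of 5 in the treatment protocol. It is the same RNA for both drugs, so its RNA levels cancel in the difference reported here. The signal measured from it still differed between the arrays of the drugs, as given below. The dose was equal by weight and not by number of molecules, and with 1 dose and 1 time the pair gives no dose response.

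Adefovir and tenofovir are acyclic nucleoside phosphonates, analogs of adenosine monophosphate in which an open side chain replaces the sugar. Cells phosphorylate them, and the products block viral polymerases, which is why they are used against hepatitis B virus and, for tenofovir, HIV. Tenofovir differs from adefovir by a methyl group on the side chain. The esters that mask the phosphonate differ as well, pivaloyloxymethyl groups in adefovir dipivoxil and isopropyloxycarbonyloxymethyl groups in tenofovir disoproxil, so both changes are compared together. Hepatocytes hold most of the body's drug-oxidising P450 enzymes and make cholesterol from acetyl-CoA through mevalonate and squalene. The genes of that pathway are switched on together by SREBP transcription factors when sterol in the cell is low. Cholesterol is in turn oxidised to bile acids by a further set of P450 enzymes.

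Each array carried 120 gene probes with 3 spots each, covering 118 genes. Of these probes, 51 stood above local background in both channels on more than 10 of the 20 arrays and are called well measured here. The value per animal is the log2 ratio of treated RNA to saline pool, the mean of its 2 arrays, and a difference is adefovir minus tenofovir on that scale. The arrays of the drugs differed in brightness. On arrays with treated RNA in Cy3, the upper quartile of the treated signal above background was 141 to 353 scanner units for adefovir animals 1 to 4 and 1113 for animal 5, against 1160 to 3346 for the tenofovir animals. With treated RNA in Cy5 it was 256 to 571 for adefovir and 84.8 to 711 for tenofovir. The groups did not overlap in Cy3 and overlapped in Cy5, so values from each dye orientation are given for the genes with the largest differences. Slide position (top or bottom) and dye orientation coincide. Hepatocyte genes were well measured in 6 of the 7 cases present on the array, among them Apoa1, Hnf4a and Cyp2e1. No marker of other liver cells was on the array, so a change in the mix of cells was not tested. In whole liver, fewer cells of a type and less RNA per cell cannot be told apart.

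**Figure D1:**
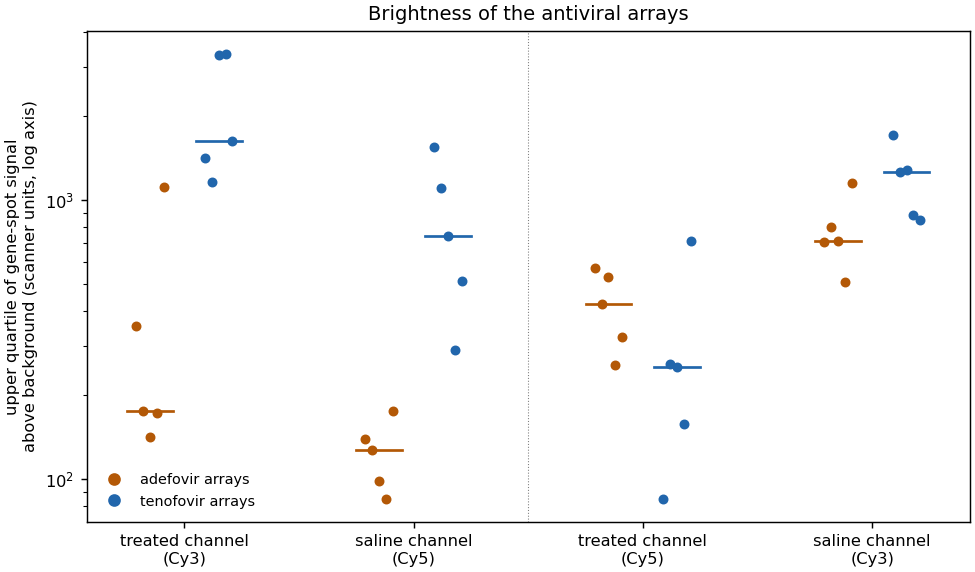
Brightness of the 20 antiviral arrays, as the upper quartile of gene-spot signal above local background in scanner units on a log axis. Each point is an array and each bar the median of its group; with treated RNA in Cy3 the adefovir arrays (141 to 1113) lie below all tenofovir arrays (1160 to 3346).

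Adefovir and tenofovir livers were not separated by any gene at the adjusted threshold. Limma called 0 of 120 probes after Benjamini-Hochberg adjustment (percent of probes called 0), and the smallest adjusted p was 0.676. Without adjustment, 8 of 120 probes (6.67%) had a p under 0.05, 3 of them (2.50%) higher and 5 (4.17%) lower after adefovir. On no probe did the 5 adefovir animals lie apart from the 5 tenofovir animals. The 95% interval of the difference lay within 1 log2 unit of 0 for 49 of the 51 well-measured probes and within 0.5 for 39 of them. Differences were above 0 for 47 of 120 probes (39.2%) and for 23 of the 51 well-measured ones (45.1%), and the share of all probes was 35.8% to 47.5% under other ways of scaling, with 60 of 120 above 0 in Cy3 alone and 63 of 120 (52.5%) in Cy5 alone. Replicates are separate animals, so these tests measure the spread between animals together with the noise between arrays. In a fit of single arrays, the arrays of an animal correlated at only 0.169 within probes.

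**Figure D2:**
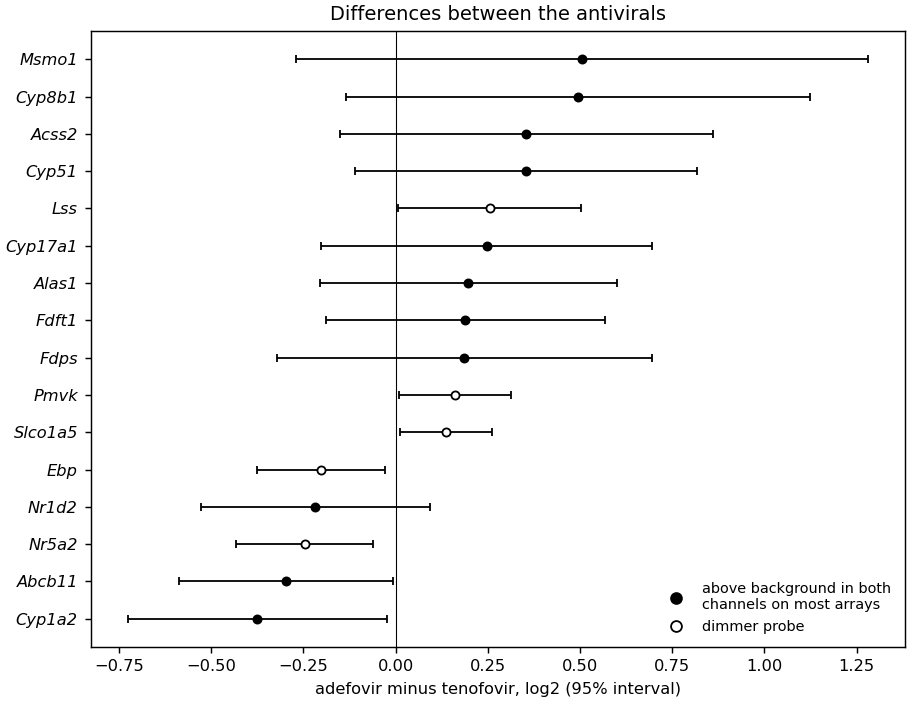
Adefovir minus tenofovir difference in log2 units with its 95% interval, for the named probes with an unadjusted p under 0.05 and the named ones among the 12 well-measured probes with the largest difference (n = 5 animals per drug). Filled points are well-measured probes and open points dimmer ones; the intervals of Msmo1 and Cyp8b1 are the widest shown, and those of the filled points include 0 for all but Cyp1a2 and Abcb11.

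Among the 8 probes under an unadjusted p of 0.05, Cyp1a2 and Abcb11 were well measured. Cyp1a2, a drug-oxidising P450 induced through the aryl hydrocarbon receptor, had log2 ratios of -0.34, -1.09, -0.62, -0.48 and -0.43 in adefovir animals 1 to 5 and of 0.17, -0.29, -0.07, -0.53 and -0.37 in tenofovir animals 1 to 5. All adefovir animals and 4 of 5 tenofovir animals were below the pool, and the groups overlapped between -0.34 and -0.53. The difference was -0.37 (SE 0.160, 95% interval -0.73 to -0.02, adjusted p = 0.676 by limma), a 1.30-fold lower level after adefovir. It was -0.53 on the Cy3 arrays and -0.22 on the Cy5 arrays, and -0.25 without adefovir animal 2, the lowest of all. Centring each array on its median in place of the loess curve left -0.04. The other measured target of that receptor, Cyp1a1, stayed at background in each channel of all 20 arrays.

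Abcb11, the pump that exports bile salts from hepatocytes, had ratios of -0.28, -0.05, -0.45, -0.25 and -0.14 after adefovir and of 0.51, 0.04, 0.14, -0.14 and -0.23 after tenofovir. All 5 adefovir animals were below the pool, with tenofovir animals 4 and 5 among them and tenofovir animals 1 to 3 above. The difference was -0.30 (SE 0.131, interval -0.59 to -0.01, adjusted p = 0.676 by limma), with -0.16 in Cy3 and -0.43 in Cy5. Without tenofovir animal 1 it was -0.19, and median centring took it to 0.02. Nr5a2, a nuclear receptor that drives bile acid genes, had the smallest p of the array. Its ratios were -0.34, 0.02, -0.21, -0.16 and 0.02 after adefovir and 0.30, 0.08, 0.14, 0.02 and 0.03 after tenofovir. The means were -0.13 ± 0.156 (SD, n = 5) and 0.11 ± 0.114 (SD, n = 5), and the difference was -0.25 (interval -0.43 to -0.06, unadjusted p = 0.0143 by limma). It had the same sign in Cy3 (-0.26) and Cy5 (-0.23), but the probe was above background in both channels on only 4 of 20 arrays.

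Of the remaining probes in that set, Ebp and Lss act in sterol synthesis and were above background in both channels on 6 and 9 of 20 arrays. Ebp, the sterol isomerase, differed by -0.20 (-0.37 to -0.03), with -0.39 in Cy3 and -0.01 in Cy5. Lss, which closes the sterol ring, differed by 0.26 (0.01 to 0.50), with 0.16 in Cy3 and 0.36 in Cy5. Pmvk, phosphomevalonate kinase, and Slco1a5, an organic anion uptake carrier, differed by 0.16 and 0.14, but neither probe was above background on any array in either channel. The eighth probe is not named here. Of the 8 probes, 7 had the same sign in both dye orientations, a property of 49 of all 120 probes (40.8%). These 8 were picked by a p-value on the mean of both orientations. Values of opposite sign cancel in that mean, so the selection favours agreement and the count is not separate evidence.

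**Figure D3:**
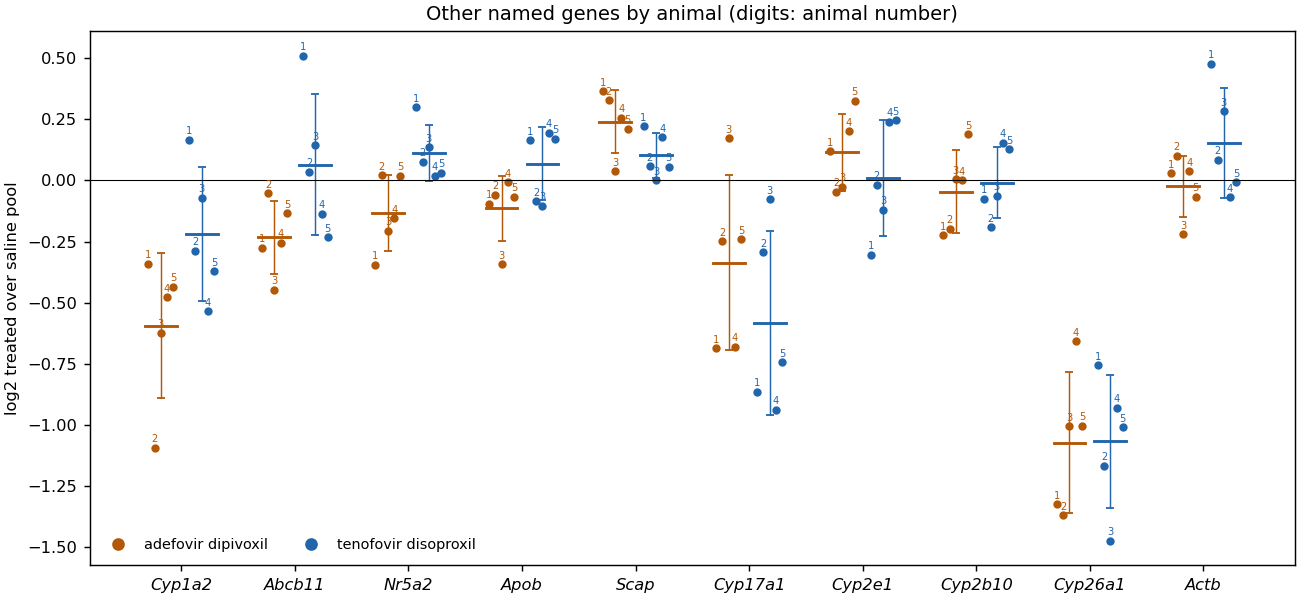
Log2 ratio of treated RNA to saline pool for 10 named genes outside sterol synthesis, by animal. Points are animals with their number, bars the group mean and whiskers 1 SD (n = 5 per drug); the groups overlap for every gene shown, and all 5 adefovir animals are below 0 for Cyp1a2, Abcb11, Apob and Cyp26a1.

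The genes of cholesterol synthesis had mostly higher mean ratios after adefovir, and within the adefovir group 2 animals had ratios above the pool while 3 had ratios as low as those after tenofovir. None of the 18 measured members passed the test, against 0 of 120 probes overall. Of the 18, all but Ebp had a difference above 0 (17), and so had all 9 that were well measured, beside 39.2% and 45.1% of all and of well-measured probes. The median difference was 0.14 (0.19 over the well-measured members), against -0.02 over all probes. The steps up to farnesyl diphosphate had a median of 0.17 (8 members) and the later steps of 0.09 (10 members). Members of a pathway measured in the same animals are not independent. The list was chosen with earlier results known, and 3 of its members are counted but not named.

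The promoters of these genes were read because most members varied together between animals. The RefSeq promoter table of assembly GRCm38.p6, which gives 250 bases before to 50 bases after each gene's start, held 12 of the 15 named members. CCAAT boxes, the element bound by the factor NF-Y, lie beside SREBP sites in several sterol genes. CCAAT was found on either strand in all 12, in at least 1 entry of each gene, against 37.4% of the 32851 promoters in the table. Genes with several entries (3 for Dhcr7, 2 for Pmvk) had more chances of a match than a single promoter. The 12 include Ebp, Idi1 and Pmvk, in which adefovir animals 1 and 3 were not both at the top of their group. The box was thus not limited to members with that order of animals. Altogether 8 strings were searched on both strands after the values were known, and several overlap. ATTGG is the same box read on the other strand. Its extension GATTGG was in 11 of the 12 and in 16.1% of all promoters. The forms of the sterol element that were searched, all built around CACCCCAC or CACNCCAC, were rarer. CACCCCAC (2.87% of all promoters), TCACCCCAC (0.551%), TCACNCCAC (1.24%) and CACNCCAC (6.24%), of which each holds or widens another, were in Hmgcs1 alone among the 12, and TCACCCCAC with a further A before it (0.0913%) was in none. No other form of the element was searched, so these counts do not show that the other genes lack it. A match is a description of these letters and not a site shown to be bound. The 3 promoters below belong to genes described next, with CCAAT boxes on either strand and CACCCCAC in capitals, written 5′ to 3′ on the gene's own strand.
Msmo1, chr8:64733529-64733828, minus strand: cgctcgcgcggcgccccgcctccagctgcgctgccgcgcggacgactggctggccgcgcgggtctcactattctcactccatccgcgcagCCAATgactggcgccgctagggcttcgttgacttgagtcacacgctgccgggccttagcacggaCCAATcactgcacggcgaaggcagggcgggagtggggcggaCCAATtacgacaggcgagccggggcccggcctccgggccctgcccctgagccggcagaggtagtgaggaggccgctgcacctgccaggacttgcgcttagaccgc
Cyp51, chr5:4104648-4104947, minus strand: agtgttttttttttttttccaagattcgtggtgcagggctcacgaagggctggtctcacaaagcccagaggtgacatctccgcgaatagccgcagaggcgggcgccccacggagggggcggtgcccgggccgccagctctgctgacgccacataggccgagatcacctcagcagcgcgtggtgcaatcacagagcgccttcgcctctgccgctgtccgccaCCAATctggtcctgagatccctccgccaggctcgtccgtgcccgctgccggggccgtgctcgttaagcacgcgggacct
Hmgcs1, chr13:119690101-119690400, plus strand: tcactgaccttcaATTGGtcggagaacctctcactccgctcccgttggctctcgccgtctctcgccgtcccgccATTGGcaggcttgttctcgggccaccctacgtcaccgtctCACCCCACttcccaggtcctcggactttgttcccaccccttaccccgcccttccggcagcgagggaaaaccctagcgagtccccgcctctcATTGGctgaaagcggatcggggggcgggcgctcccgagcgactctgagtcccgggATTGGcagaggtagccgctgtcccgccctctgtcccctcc
The Msmo1 promoter holds 3 CCAAT boxes and that of Cyp51 holds 1, just before the start. That of Hmgcs1 holds 4, all written as ATTGG, beside the CACCCCAC element.

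Msmo1, the sterol C4-methyl oxidase, had the largest difference of the array. Its ratios were 0.33, -0.99, 1.02, -0.48 and -0.69 in adefovir animals 1 to 5 and -1.11, -0.68, -0.99, -0.32 and -0.22 in tenofovir animals 1 to 5. Adefovir animals 1 and 3 were above the pool and above every tenofovir animal, while adefovir animals 2, 4 and 5 lay within the tenofovir range. The difference was 0.50 (SE 0.352, interval -0.27 to 1.28, adjusted p = 0.855 by limma), or 1.42-fold, with 0.64 in Cy3 and 0.37 in Cy5, and 0.21 without adefovir animal 3. Cyp51, lanosterol demethylase, had ratios of 0.40, -0.61, 0.29, -0.37 and -0.43 after adefovir and of -0.40, -0.50, -0.79, -0.71 and -0.07 after tenofovir. Adefovir animals 1 and 3 were again the only animals above the pool. The difference was 0.35 (interval -0.11 to 0.82), 0.25 in Cy3 and 0.45 in Cy5, and it was 0.22 without adefovir animal 1.

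The same 2 adefovir animals stood out along the pathway. Fdps, which makes farnesyl diphosphate, had 0.36, -0.86, 0.29, -0.54 and -0.76 after adefovir, against a narrow -0.36, -0.55, -0.51, -0.58 and -0.44 after tenofovir. Adefovir animals 2 and 5 were below every tenofovir animal and animals 1 and 3 above them, so that the means differed by only 0.19 (interval -0.32 to 0.70), with 0.06 in Cy3 and 0.31 in Cy5. Without adefovir animal 1 or 3 that difference was 0.02 or 0.04. Fdft1, squalene synthase, had 0.27, -0.41, 0.33, -0.35 and -0.39 after adefovir and -0.10, -0.30, -0.64, -0.34 and -0.12 after tenofovir, a difference of 0.19 (-0.19 to 0.57), with 0.25 in Cy3 and 0.13 in Cy5. Without adefovir animal 1 or 3 it was 0.09 or 0.08. Hmgcs1, which makes the precursor of mevalonate, had 0.33, -0.41, 0.51, -0.18 and -0.41 after adefovir and -0.23, -0.27, -0.52, -0.07 and -0.18 after tenofovir. Its difference was 0.22 (-0.17 to 0.62), with 0.33 in Cy3 and 0.11 in Cy5, and 0.13 or 0.09 without adefovir animal 1 or 3. It was above background in both channels on 8 of 20 arrays. In each of these genes the only animals above the pool were adefovir animals 1 and 3.

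Mvd, mevalonate diphosphate decarboxylase, followed the same order with 0.05, -0.42, 0.30, -0.19 and -0.21 after adefovir and -0.17 to -0.45 after tenofovir, a difference of 0.24 (-0.02 to 0.51), 0.41 in Cy3, 0.08 in Cy5 and 0.14 without adefovir animal 3. Nsdhl, a sterol dehydrogenase, had 0.39, -0.44, 0.20, -0.07 and -0.40 after adefovir and -0.04 to -0.28 after tenofovir, a difference of 0.09 (-0.24 to 0.43) that was -0.02 without adefovir animal 1. Sqle, squalene epoxidase, and Dhcr7, the last reductase of the pathway, were near background, with differences of 0.09 (-0.09 to 0.26) and 0.05 (-0.08 to 0.18). Idi1, isopentenyl diphosphate isomerase, was well measured and departed from this order. It had -0.15, -0.01, 0.12, 0.06 and 0.30 after adefovir and -0.32, -0.66, 0.32, 0.47 and 0.45 after tenofovir, a difference of 0.01 (-0.45 to 0.48). There the tenofovir animals were the more variable, with an SD of 0.513 against 0.165.

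**Figure D4:**
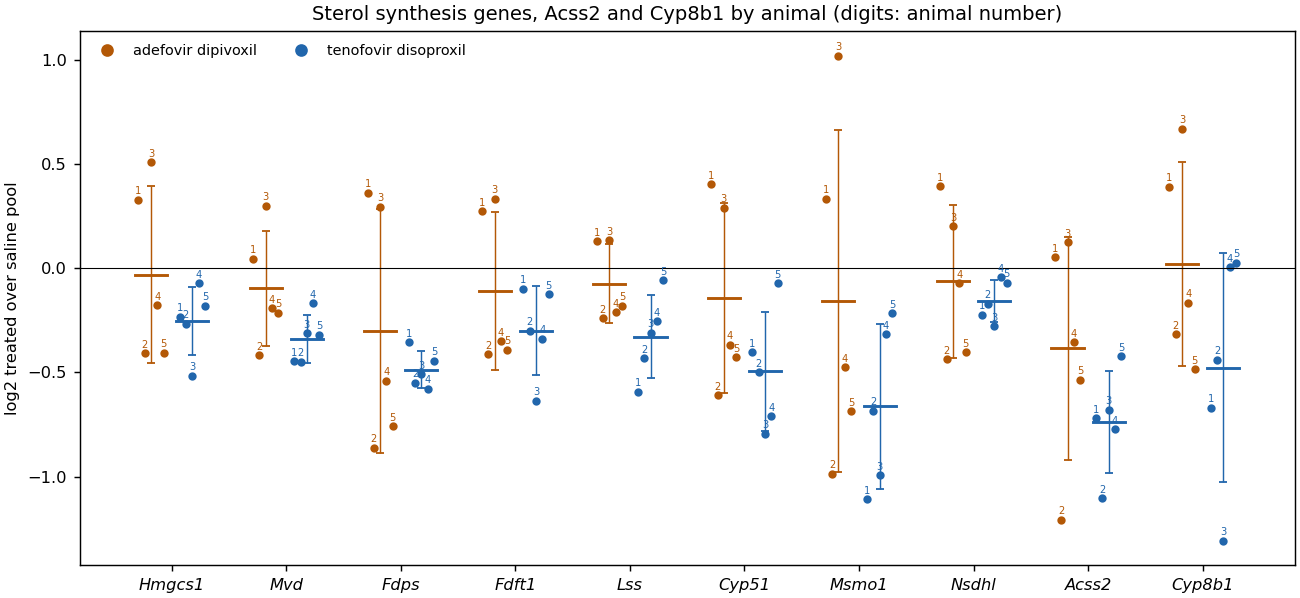
Log2 ratio of treated RNA to saline pool by animal for 8 sterol synthesis genes and for Acss2 and Cyp8b1. Points are animals with their number, bars the group mean and whiskers 1 SD (n = 5 per drug); adefovir animals 1 and 3 are the 2 highest adefovir animals for every gene shown, with Msmo1 at 0.33 and 1.02, while the tenofovir animals lie below 0 in the 8 synthesis genes.

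Counted over the list, adefovir animals 1 and 3 had a ratio above the pool in 16 and 17 of 18 members, and adefovir animals 2, 4 and 5 in 3, 2 and 2. The tenofovir animals had 2, 2, 3, 4 and 3 members above the pool. The median ratio of the 9 well-measured members was 0.10 and 0.29 in adefovir animals 1 and 3, -0.41, -0.19 and -0.37 in adefovir animals 2, 4 and 5, and between -0.50 and -0.08 in the tenofovir animals. Each dye orientation gave the same separation. Adefovir animal 1 had medians of 0.15 in Cy3 and 0.21 in Cy5 and animal 3 of 0.28 and 0.30, while every other antiviral animal was below 0 in both. Adefovir animals 1 and 3 were the highest of their group in 14 of 18 members (77.8%), against 19 of all 120 probes (15.8%). These counts were chosen after the values were seen and carry no test. All 5 tenofovir animals were below the pool in 11 of 18 members, beside 13.3% of all probes, and all 5 adefovir animals in 0 of 18, beside 8.33%.

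On the Cy5 side the arrays of adefovir animals 1 and 3 were the brightest of that group, at 571 and 529 scanner units against 256 to 422, whereas in Cy3 the array of animal 3 was the dimmest at 141 and that of animal 1 the next brightest after animal 5, at 353. The part of brightness in the separation of these animals was not tested. The median difference of the list was 0.14 in Cy3 alone and 0.14 in Cy5 alone, with 14 of 18 members above 0 in each. Without adefovir animal 3 it was 0.04, and without adefovir animal 1 it was 0.07. It stayed above 0 under all 18 alternatives tried (0.09 to 0.26), with 13 of 18 members above 0 when arrays were centred on Actb, Gapdh and Ppia or on calibration spots. Some of these could not move it. Adding the phenobarbital plus β-naphthoflavone animals, a random block for the animal and a block for the replicate number change only the error. The fit of well-measured probes takes a subset of the same differences.

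Spread between the animals of a group was compared by limma on each animal's distance from its group median. No probe passed (0 of 120, percent called 0, smallest adjusted p 0.994), and 2 (1.67%) had an unadjusted p under 0.05, both in sterol synthesis. For Fdps the SD was 0.586 after adefovir and 0.0891 after tenofovir, a ratio of 6.57 (unadjusted p = 0.0302 by limma). For Nsdhl it was 0.365 and 0.0998, a ratio of 3.66 (unadjusted p = 0.0181 by limma). With adefovir animal 2, 4 or 5 left out, limma called Fdps for spread (adjusted p = 0.00114, 3.15e-05 and 0.00774), and without animal 4 also Nsdhl (0.012) and Hmgcs1 (0.0339), each more variable after adefovir. Those fits hold 2 high and 2 low adefovir animals, and the median of the 4 falls in the gap between them. The distances from it are then large and similar, so these smaller p-values are not separate evidence of spread. Over the list the SD was larger after adefovir in 15 of 18 members, against 62 of all 120 probes (51.7%). Earlier results of these data had shown unequal SDs for some sterol genes, so the question of spread is not independent. The members also vary together between animals, so the count is no separate result. The median SD of the 9 well-measured members was 0.38 after adefovir and 0.22 after tenofovir, where all 51 well-measured probes had 0.17 and 0.19 and 52.9% of them a larger SD after adefovir.

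Genes that neighbour the pathway gave a mixed picture. Acss2, the cytosolic enzyme that activates acetate to acetyl-CoA, had 0.05, -1.21, 0.12, -0.36 and -0.54 after adefovir and -0.72, -1.10, -0.68, -0.77 and -0.42 after tenofovir. Adefovir animals 1 and 3 were the only ones above the pool. The difference was 0.35 (interval -0.15 to 0.86, adjusted p = 0.755 by limma), 0.45 in Cy3 and 0.26 in Cy5. Scap, which escorts SREBP proteins to their activation, was above the pool in all 10 animals, by 0.04 to 0.37 after adefovir and by 0.00 to 0.22 after tenofovir, and differed by 0.14 (-0.02 to 0.30). Srebf1 and Srebf2, the genes of the SREBP proteins, were not above background in both channels on any array, with differences of 0.07 and 0.06. Apob, the structural protein of secreted lipoproteins, differed by -0.18 (-0.37 to 0.01) and turned to 0.16 with median centring. Of the 9 measured genes of sterol regulation, 5 were above 0 and 4 below, with a median of 0.03, beside 39.2% of all probes above 0.

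In bile acid synthesis the widest difference was that of Cyp8b1, the sterol 12-hydroxylase, which was above background in both channels on 11 of 20 arrays. Its ratios were 0.39, -0.32, 0.67, -0.17 and -0.49 after adefovir and -0.67, -0.44, -1.31, 0.01 and 0.03 after tenofovir. Adefovir animals 1 and 3 were the highest of all 10, as in sterol synthesis, and tenofovir animal 3 the lowest. The difference was 0.50 (SE 0.286, interval -0.13 to 1.13, adjusted p = 0.755 by limma), 0.74 in Cy3 and 0.25 in Cy5, and 0.29 without tenofovir animal 3. Cyp7a1, the rate-limiting enzyme, was near background and differed by -0.06 (-0.21 to 0.09), and Cyp27a1, which starts the alternative route, by 0.06 (-0.23 to 0.35). Cyp39a1, an oxysterol hydroxylase, differed by -0.20 (-0.42 to 0.02) without being above background in both channels on any array. Of the 7 measured members, 2 were above 0 and 5 below, with a median of -0.06, beside 39.2% of all probes above 0.

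The P450 list spans drug oxidation and sterol, bile acid and steroid metabolism, and it holds Cyp1a2, the lowest difference of the array (-0.37), and Cyp8b1, its highest member (0.50). Of 31 measured P450 genes 0 passed, 9 were above 0 and 22 below, beside 39.2% of all probes above 0. The median was -0.04 beside -0.02 for all probes. Over the 19 well-measured ones 9 were above and 10 below (median -0.01), beside 45.1% of all well-measured probes above 0. The list median turned sign in 6 of 18 alternatives (-0.06 to 0.18). Cyp2b10, the main phenobarbital-inducible P450, had -0.22 to 0.19 after adefovir and -0.19 to 0.15 after tenofovir, a difference of -0.04 (-0.24 to 0.17). Cyp2e1, the ethanol-inducible P450, differed by 0.11 (-0.15 to 0.36), and Cyp3a41a, a female-biased Cyp3a enzyme, by 0.09 (-0.22 to 0.41). Cyp2a4, a steroid hydroxylase, was above the pool in all 10 animals and differed by -0.11 (-0.34 to 0.12). Cyp2a12 was likewise above the pool in all 10 animals, with a difference of -0.01 (-0.17 to 0.15), and Cyp2d22 differed by -0.12 (-0.35 to 0.11). Median centring turned Cyp2b10, Cyp2a4, Cyp2a12 and Cyp2d22 to 0.26, 0.21, 0.32 and 0.18. Targets of the xenobiotic receptors CAR and PXR numbered 9, all well measured, with a median of -0.04 that turned sign in 7 of 18 alternatives (-0.10 to 0.23) and with 3 of the 10 animals left out in turn. Cyp2a4 was the lowest of them. Alas1, which starts heme synthesis, was the highest at 0.20 (-0.21 to 0.60), with 0.22 in Cy3 and 0.18 in Cy5.

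Cyp17a1, which makes androgen precursors and is expressed in mouse liver, had -0.69, -0.25, 0.17, -0.68 and -0.24 after adefovir and -0.86, -0.29, -0.08, -0.94 and -0.74 after tenofovir. In both groups animal 3 was the highest, and the ranges overlapped. The difference was 0.25 (-0.20 to 0.70), with 0.45 in Cy3 and 0.04 in Cy5. Cyp26a1, the retinoic acid hydroxylase, was far below the pool in all 10 animals, with ratios of -1.37 to -0.66 after adefovir and -1.47 to -0.75 after tenofovir. The difference of -0.01 (-0.35 to 0.34) averaged opposite values, 0.67 in Cy3 and -0.68 in Cy5. Its treated channel was above background on 1 of 10 adefovir and 2 of 10 tenofovir arrays, so the ratio has no firm lower end and the drugs cannot be ranked on it.

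Transporters and nuclear receptors also held no call. Their counts stand beside 39.2% of all 120 probes above 0. Of the 13 measured members of the transporter list, which leaves out Slco1a5, 3 were above 0 and 10 below, with a median of -0.04. Abcb11 was the lowest, and the phospholipid exporter Abcb4 the highest of the list at 0.12 (-0.16 to 0.40). The bile acid importer Slc10a1 differed by 0.03 (-0.10 to 0.17), the conjugate exporters Abcc2 and Abcc3 by -0.04 (-0.29 to 0.21) and 0.01 (-0.19 to 0.22), and the drug exporter Abcb1a by -0.18 (-0.41 to 0.04). The sterol exporter pair Abcg5 and Abcg8 had -0.03 and -0.08. Of 26 nuclear receptor and coregulator genes, 8 were above 0 and 18 below, with a median of -0.01. Nr5a2 was the lowest and the retinoid receptor Rxrg, not above background in both channels on any array, the highest at 0.06. The well-measured receptors Nr1i3 (CAR), Nr1h4 (the bile acid receptor FXR) and Hnf4a differed by 0.03 (-0.21 to 0.27), -0.03 (-0.27 to 0.20) and -0.06 (-0.37 to 0.24). Nr1d2, a repressor of the circadian clock, differed by -0.22 (-0.53 to 0.09), with -0.08 in Cy3 and -0.35 in Cy5. The coactivator Ppargc1a differed by -0.02 (-0.27 to 0.23). The reference genes used for scaling elsewhere were not fixed points. Actb differed by -0.18 (-0.41 to 0.06), with -0.37 in Cy3 and 0.01 in Cy5, Ppia by -0.09 (-0.33 to 0.14) and Gapdh by -0.05 (-0.26 to 0.16).

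Each dye orientation measured all 10 animals on arrays of its own, and the differences from the Cy3 and Cy5 arrays had opposite signs for most probes. Over 120 probes the Cy3 and Cy5 differences had the same sign in 49 (40.8%) and a correlation across probes of -0.014, and over the 51 well-measured probes they had the same sign in 23 and a correlation of 0.295. In cholesterol synthesis 12 of 18 members had the same sign in both, in the P450 list 10 of 31 and among the transporters 5 of 13. Probes share arrays and dye behaviour, so these correlations are descriptions only. For an animal, its Cy3 and Cy5 arrays correlated across probes at 0.205 to 0.682 after adefovir and at -0.112 to 0.466 after tenofovir.

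**Figure D5:**
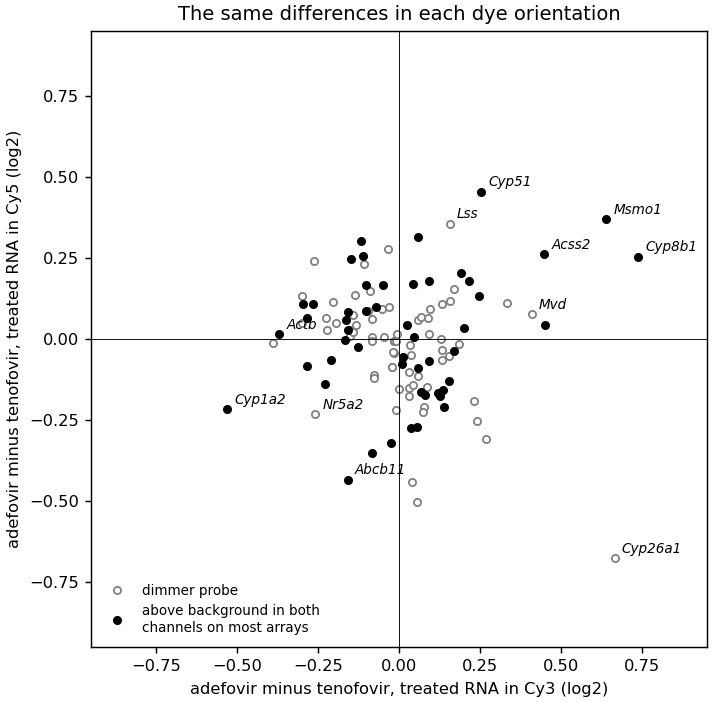
Adefovir minus tenofovir difference (log2) on arrays with treated RNA in Cy3, horizontally, and in Cy5, vertically, for all 120 probes (filled, 51 well-measured probes). Msmo1, Cyp51, Acss2 and Cyp8b1 lie above 0 on both axes, Cyp1a2, Abcb11 and Nr5a2 below 0 on both, and Cyp26a1 lies at 0.67 and -0.68.

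Reading the treated channel alone, without the pool as a partner, gave 8 calls by limma, 2 of them on well-measured probes and 6 higher on adefovir slides. The saline channel, which held the same pool on every slide, gave 30 calls when fitted in the same way, 25 of them higher on adefovir slides. All 8 treated-channel calls were among those 30 and ran in the same direction. No array held treated RNA of both drugs. In a single channel, a difference between the drugs and one between their arrays cannot be told apart. The ratio to the pool is the scale of every other value given here.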

How the data were processed

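Liver RNA was labelled with Cy3 or Cy5 and hybridised against pooled saline RNA, per the labels' protocols. The authors deposited, per the file headers, the median intensity of each spot and its local background in both channels, not background-subtracted or normalized. They also deposited a series table of log2 ratios, for which no source used here gives the normalization. Its direction and scale were taken from a match to the scanner ratios (r of 0.677 to 0.965).

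Intensities were corrected with normexp (offset 50) and normalized within arrays by loess (span 0.3) over gene spots in limma 3.58.1 (R 4.3.3), with control spots at weight 0. The 3 spots of a probe were averaged, then the 2 arrays of an animal, which cancels a dye effect. A linear model over 10 animals (8 residual degrees of freedom, 2.86 prior) was followed by eBayes, with p-values adjusted over 120 probes by Benjamini-Hochberg and a threshold of 0.05. The spread test used the same model on absolute deviations from the group median. The test of means was tried on simulated data with shifted means, and the spread test was not tried on simulated data. A probe was above background where at least 2 of 3 spots exceeded the local background by 2 background SDs. No gene spot of the 20 arrays was saturated. The number of arrays limits the precision.

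Named genes were those with an unadjusted p under 0.05, the 12 well-measured probes with the largest difference, each list's extremes and a fixed set of genes. Of 120 probes, 110 carry a platform annotation, and the other 10 are counted but not named, also where the fixed set or a rule holds them. Symbols of 115 probes matched RefSeq (GRCm38.p6) directly and 3 by synonym. Probes of close paralogs can cross-hybridise. Members and gene lists were chosen with earlier results of these data known. The measured lists of heme supply, retinoid metabolism and steroidogenesis had median differences of 0.09, 0.00 and -0.03. Lists of PPAR alpha targets, interferon response, inflammation and other liver cells had 0 measured members. Figures used Python 3.11.15 with matplotlib 3.10.9.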

Additional observations from a re-analysis of the deposited data

Results flagged for a closer look

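In 8 of 114 groups of 5 animals among the named genes, a single animal lay far from the other 4, as Dixon's ratio at its 95% critical value marks it. Chance marks about 1 in 20 such groups.

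After adefovir, Apob had a log2 ratio of -0.343 in animal 3 against -0.095 to -0.006 in the others. Abcg5, a sterol exporter subunit, had 0.296 in animal 5 against 0.011 to 0.074. Cyp1a1, not above background, had -0.222 in animal 5 against -0.117 to -0.076.

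After tenofovir, the FXR gene Nr1h4 had -0.310 in animal 3 against at least 0.158 in the others. Abcc3 had -0.151 in animal 2 against 0.080 to 0.165. The dim probes of Nr0b2, Rxrb and Srebf1 had 0.184 in animal 5, 0.238 in animal 1 and 0.238 in animal 4, where the others reached at most 0.034, 0.046 and 0.051.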

How the results depend on the processing

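The count of 0 probes with a different mean held under 17 of 18 alternatives and with any of the 10 animals left out. The exception was the treated channel alone, with 8 calls, among them Cyp11a1 (0.2854, against -0.06 as a ratio) and Dhcr7 (0.3815), both also called in the saline channel. Unadjusted counts ran from 0 (centring on calibration spots) to 26 (treated channel alone), with 19 in Cy3 alone and 13 in Cy5 alone against 8. With the replicate block the count was 0 and the smallest adjusted p 0.641. Same-numbered animals correlated at -0.210 to 0.271 and differently numbered ones at -0.469 to 0.463. For numbers 2 and 4 the same-numbered pair (0.271 and 0.130) was above every other pairing of those animals (at most 0.202 and 0.119). For numbers 1, 3 and 5 it was not. So few pairs can neither show nor exclude an effect shared by number. The spread count of 0 held under each alternative run for it (the animal as a random block was not run for the spread). It ran from 0 to 3 with an animal left out: 1, 3 and 1 calls without adefovir animal 2, 4 or 5 (Fdps each time). Those fits leave 2 high and 2 low adefovir animals around a median in the gap, so the calls are not separate evidence of spread. Centring on Actb, Gapdh and Ppia moved the median of all probes to -0.13, calibration spots to -0.13 and the deposited table (63 probes fitted) to 0.10. The sign turned in 154 of 986 named differences under alternatives, some of which change only the error and cannot turn a sign. Equal channel brightness before correction and leaving out the 4 dimmest adefovir arrays, both chosen after seeing the data, gave 0 calls and list medians of 0.10 and 0.15 for cholesterol synthesis. The 69 dimmer probes limit what can be seen.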
